A study of Mus musculus with 13 samples.

Results

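Stress hormones of the adrenal gland act on cells through a small set of receptors, partners and targets, and 10 genes of this system were examined in RNA sequencing data of enriched Sertoli cells from the adult mouse testis. They are the receptors *Nr3c1* and *Nr3c2*, the receptor co-chaperones *Fkbp5* and *Fkbp4*, the coactivator *Ncoa1*, the enzymes *Hsd11b1* and *Hsd11b2*, and the hormone-induced genes *Tsc22d3*, *Sgk1* and *Zbtb16*. The genes were taken by symbol, and 10 of 10 were found among the 27111 features of the table that carry a gene name. Each library held Sertoli cells of a wild-type C57Bl/6J male of 3 to 5 months, sorted as large diploid cells with high mitochondrial staining and sequenced from 5 ng of RNA. Control mice (n = 6) had been left undisturbed. MSUS mice (n = 7), named for maternal separation at unpredictable times with added stress of the mother, had been taken from their mother for 3 h a day between postnatal days 1 and 14, while the mother was put in water of 18 °C for 5 min or restrained in a tube for 20 min. The comparison asks whether these genes differed in adult Sertoli cells long after that exposure. Each mouse is named by its group and its number in the labels, and litter and cage were not used here.

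Corticosterone, the main glucocorticoid of the mouse, crosses the membrane and binds the glucocorticoid receptor, which waits in the cytoplasm in a complex with HSP90 and with co-chaperones such as FKBP5 and FKBP4. The bound receptor moves to the nucleus, sits on DNA at paired hexamers known as glucocorticoid response elements, and recruits coactivators. The mineralocorticoid receptor binds the same hormone with higher affinity. 11β-HSD1, encoded by *Hsd11b1*, regenerates active hormone inside the cell, and 11β-HSD2, encoded by *Hsd11b2*, inactivates it. Sertoli cells nurse the germ cells and are known to carry the glucocorticoid receptor, and Leydig cells of the same testis are known for their corticosteroid dehydrogenases.

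The libraries held between 12701776 and 18649945 estimated counts. Among the 78 pairs of libraries, 0 were identical, and their counts differed by more than sampling noise. The 5 Sertoli cell markers, led by *Clu* and *Ctsl*, had a mean level of 10.18 ± 0.10 log2 CPM (SD, n = 6; CPM scales the counts of named genes in a library to a fixed total) in control and 10.15 ± 0.09 (n = 7) in MSUS mice, above each other marker list. Other cells of the testis left some RNA. The 5 Leydig cell markers summed to 30.01 to 66.9 CPM in control and 40.01 to 83.2 CPM in MSUS mice, and the 4 elongated spermatid markers to 847 to 1378 and 730 to 1775 CPM. Spermatocyte, round spermatid, endothelial and peritubular myoid markers summed to between 7.50 and 186 CPM in control and between 10.5 and 221 CPM in MSUS mice. Of the 5 spermatogonia markers, *Uchl1* (212 ± 22.4 CPM in control, n = 6) and *Dmrt1* (125 ± 11.5), the latter also known in Sertoli cells, were abundant, and the other 3 had means of 0.393 to 1.34 CPM. The 4 macrophage markers summed to at most 0.973 and 1.996 CPM.

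For none of the 10 genes did the tests find a difference between control and MSUS mice. Of the 7 that passed the filter on low counts, 0 had a p-value under 0.05, against 5.42% of the 14421 genes tested, of which 3.02% were higher and 2.4% lower in MSUS mice. When counts were scaled by library size only, without TMM, the genes with p under 0.05 split into 325 higher and 469 lower, against 435 and 346. After adjustment 0 genes passed (0%), with limma voom, edgeR and DESeq2 alike, and the smallest adjusted p was 0.878. The median absolute log2 fold change was 0.05 for the 7 genes and 0.10 for all genes tested, and 3 of the 7 were higher and 4 lower by their point estimate. In 0 of the 7 did the values of the groups fail to overlap, against 0.132% of all genes. Among the 7 genes, the 95% intervals of the fold change lay between 0.756 and 1.32, the widest of them being that of *Tsc22d3*. *Hsd11b1*, *Hsd11b2* and *Zbtb16* had too few counts for this fit.

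**Figure D1:**
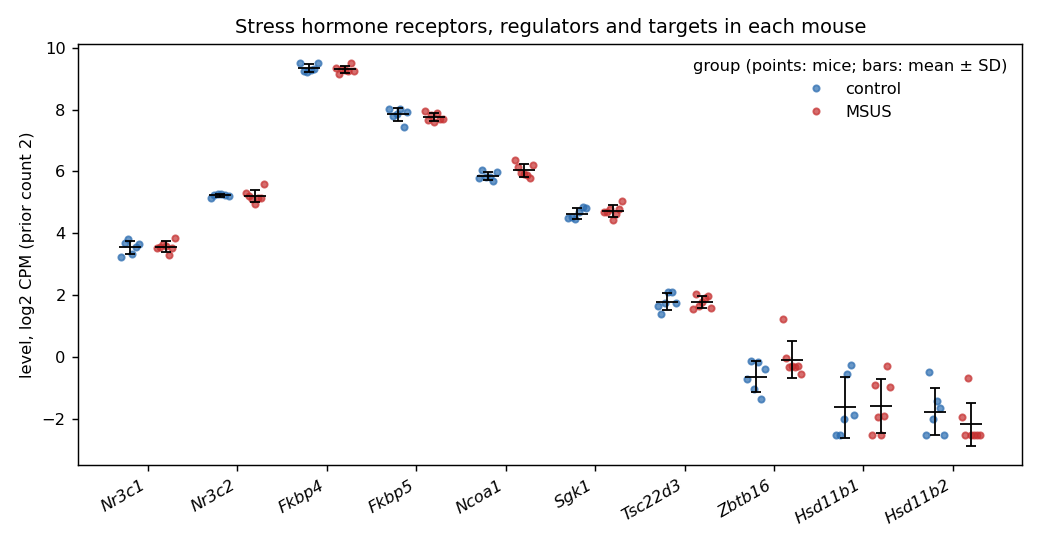
Level of each of the 10 genes in every mouse (y axis, log2 CPM with a prior count of 2), with points for control (blue, n = 6) and MSUS (red, n = 7) mice and black bars for mean ± SD. The points of both groups overlap for each gene, and *Zbtb16* in MSUS mouse 1 at 1.23 stands above the others of its group. Levels on this axis are not corrected for gene length, so genes should be compared across groups, not with each other.

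*Nr3c1*, the glucocorticoid receptor, lies on chromosome 18 of GRCm38 from 39410545 to 39519421 in GENCODE vM21, on the minus strand. Its level ran from 3.24 to 3.81 log2 CPM with a median of 3.601 in control mice, and from 3.29 to 3.85 with a median of 3.57 in MSUS mice. These ranges cover nearly the same interval. The log2 fold change was 0.02 (SE 0.12, 95% interval -0.24 to 0.28, limma voom adjusted p = 0.984). As a fold, that interval spans 0.846 to 1.21. Between 98 and 185 counts per library lay behind these values.

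*Nr3c2*, the mineralocorticoid receptor, lies on chromosome 8 from 76899442 to 77245012 on the plus strand. It ran from 5.15 to 5.28 log2 CPM in control mice, with a median of 5.25, and from 4.96 to 5.61 in MSUS mice, with a median of 5.16. The control mice lay close together (SD 0.05, n = 6), and the MSUS mice on both sides of them (SD 0.20, n = 7), with mouse 11 lowest and mouse 26 highest. A difference in spread was not tested. The log2 fold change was -0.02 (SE 0.09, 95% interval -0.21 to 0.16, limma voom adjusted p = 0.976).

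The receptor for mineralocorticoids was the more abundant transcript of the pair when levels were taken per kilobase. With the longest annotated transcript as the length, *Nr3c2* had 6.35 ± 0.21 and *Nr3c1* 1.81 ± 0.27 CPM per kilobase (SD, n = 6 control mice), a ratio of 3.58 ± 0.50. *Nr3c2* was higher in 13 of 13 mice. With the median transcript length instead, the ratio was 2.03 ± 0.28 and again above 1 in 13 of 13 mice. With the longest length *Nr3c1* stood above 22.7% of the genes tested and *Nr3c2* above 47.7%, and with the median length above 32.6% and 45.8%. The level of the glucocorticoid receptor in these preparations was thus in the lower range of expressed genes. The part of RNA from other testis cells in both receptor levels was not tested. The balance of both receptors, as the log2 ratio of *Nr3c1* to *Nr3c2* CPM within a mouse, was -1.69 ± 0.19 in control and -1.64 ± 0.18 in MSUS mice. The difference of 0.05 was smaller than either SD (exact permutation test over all splits, two-sided, p = 0.592, adjusted over 3 ratios 0.779).

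**Figure D2:**
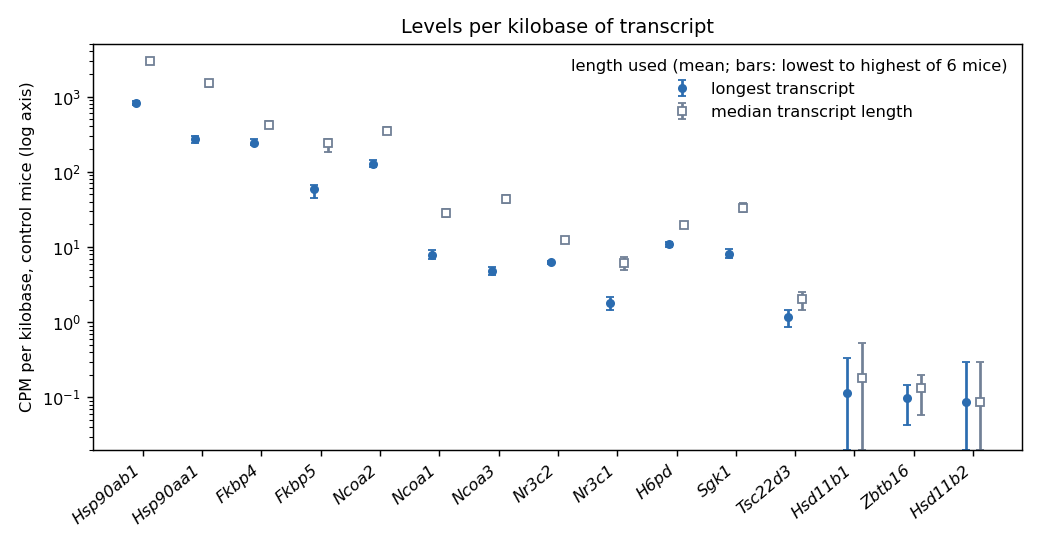
Levels in control mice on a log axis (y axis, CPM per kilobase) for the 10 genes and 5 related ones, with circles for the longest and squares for the median transcript length and bars from the lowest to the highest of 6 mice. Bars that reach the lower edge stand for mice with a count of 0. *Nr3c2* lies above *Nr3c1* and *Ncoa2* above *Ncoa1* with either length, and *Hsd11b1*, *Hsd11b2* and *Zbtb16* sit below 0.2.

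*Fkbp4* and *Fkbp5* encode immunophilins that compete for the HSP90 complex of the receptor. FKBP4 links the receptor to dynein and favours its transport, and FKBP5 lowers its affinity for hormone and is itself induced by glucocorticoids. *Fkbp5* lies on chromosome 17 from 28399094 to 28517527 and *Fkbp4* on chromosome 6 from 128429735 to 128438677, both on the minus strand. The level of *Fkbp5* ran from 7.44 to 8.03 log2 CPM (median 7.88) in control mice and from 7.61 to 7.97 (median 7.71) in MSUS mice. Control mouse 22 had the lowest value of all 13, and the MSUS range lay within the control range. The log2 fold change of *Fkbp5* was -0.07 (SE 0.09, 95% interval -0.26 to 0.11, limma voom adjusted p = 0.928). Without control mouse 22 it was -0.15 with an unadjusted p under 0.05, so this library decided on which side of that threshold the gene fell. The estimated counts of *Fkbp5* were more than 0.02 away from a whole number in 13 of 13 libraries, and those of *Fkbp4* in 8. Of genes described below, this held in 13 libraries for *Fam107a* and *Malat1* and in 12 for *Ncoa2*, for example. For *Ncoa1*, *Per1* and *Hdac3* it held in 0. Salmon divides reads that match several transcripts, and whether reads were shared with another gene was not tested.

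*Fkbp4* ran from 9.23 to 9.50 log2 CPM in control and from 9.15 to 9.49 in MSUS mice, with medians of 9.29 in both. Its log2 fold change of -0.05 had the narrowest interval of the 7 genes, from -0.18 to 0.08 (SE 0.06, limma voom adjusted p = 0.931), which as a fold is 0.883 to 1.06. With each mouse left out in turn it ranged from -0.079 without MSUS mouse 23 to -0.015 without control mouse 9. *Fkbp4* was among the most abundant transcripts of these cells, at 244 ± 21.0 CPM per kilobase (SD, n = 6), above 99.0% of the genes tested. *Fkbp5* stood at 59.9 ± 8.43 CPM per kilobase, above 93.1%. Per kilobase *Fkbp4* exceeded *Fkbp5* by a factor of 4.13 ± 0.62, or 1.76 ± 0.27 with the median transcript length, and did so in 13 of 13 mice. The log2 ratio of *Fkbp5* to *Fkbp4* CPM was -1.50 ± 0.21 in control and -1.53 ± 0.15 in MSUS mice (exact permutation p = 0.779, adjusted over 3 ratios 0.779).

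*Ncoa1* (SRC-1), on chromosome 12 from 4247362 to 4477182 on the minus strand, is a p160 coactivator that hormone-bound receptors recruit to open chromatin. It had the smallest p-value of the 7 genes, which did not pass 0.05. Control mice ranged from 5.69 to 6.05 log2 CPM (median 5.81) and MSUS mice from 5.78 to 6.38 (median 5.94), and 6 of 7 MSUS mice lay above the control mean. The groups overlapped, and the log2 fold change was 0.18 (SE 0.09, 95% interval -0.02 to 0.38, limma voom adjusted p = 0.878). Leaving out one mouse brought the unadjusted p under 0.05 in 3 cases, namely without control mouse 10 (log2 fold change 0.22), MSUS mouse 13 (0.21) or MSUS mouse 23 (0.22). Its relative *Ncoa2* was far more abundant, at 125 ± 10.8 against 7.92 ± 0.75 CPM per kilobase of *Ncoa1* (SD, n = 6), and higher in 13 of 13 mice with either length. *Ncoa3* stood below *Ncoa1* with the longest transcript (ratio 0.604 ± 0.076) and above it with the median length (1.56 ± 0.20), so their order could not be set.

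**Figure D3:**
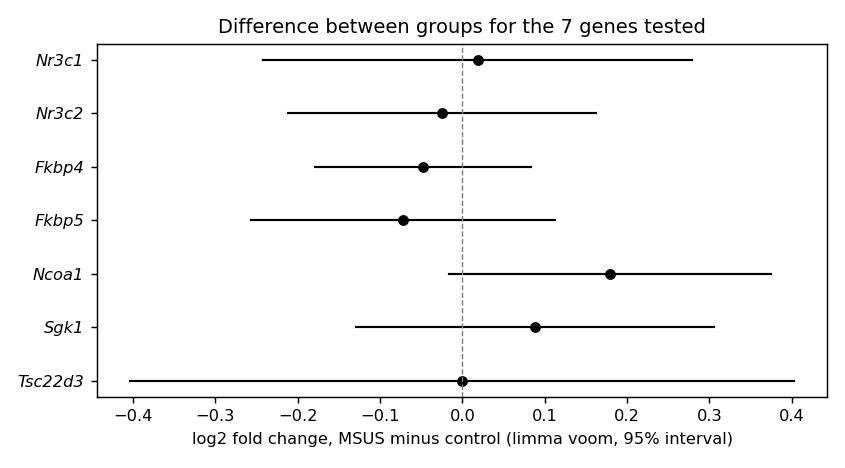
Log2 fold change of MSUS against control mice (x axis, limma voom) for the 7 genes with enough counts, as points with 95% intervals. Each interval crosses 0, from *Fkbp4* with the narrowest to *Tsc22d3* with the widest, -0.40 to 0.40.

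Both hormone-converting enzymes were at the limit of detection. *Hsd11b1* lies on chromosome 1 from 193221634 to 193264075 (minus strand) and *Hsd11b2* on chromosome 8 from 105518755 to 105523988 (plus strand). In control mice 9, 10, 12, 14, 22 and 24, in that order, *Hsd11b1* had 0, 0, 1, 5, 9 and 1 counts. In MSUS mice 1, 5, 6, 11, 13, 23 and 26 it had 0, 4, 1, 0, 1, 6 and 4 counts. Both groups thus held 16 counts in all, and 4 of 13 libraries had 0. *Hsd11b2* had 0, 8, 1, 2, 2 and 0 counts in the control mice and 1, 0, 5, 0, 0, 0 and 0 in the MSUS mice, with 7 of 13 libraries at 0. A count of 0 allows up to 3 counts, or 0.209 to 0.307 CPM depending on the library, for counting error only. Neither enzyme differed detectably at this depth (exact permutation test on CPM, two-sided, p = 0.965 for *Hsd11b1* and p = 0.437 for *Hsd11b2*). *H6pd*, whose product supplies 11β-HSD1 with NADPH, was expressed at 10.9 ± 0.65 CPM per kilobase (SD, n = 6). The Leydig cell markers were detected above the level of both enzymes, and their part in these few counts was not tested.

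The 3 classic targets of the receptor differed widely in level. *Sgk1*, on chromosome 10 from 21882184 to 21999903 (plus strand), encodes a kinase that stabilises sodium channels and answers to both receptors. It ran from 4.46 to 4.85 log2 CPM (median 4.61) in control and from 4.43 to 5.03 (median 4.69) in MSUS mice. MSUS mouse 26 was highest and MSUS mouse 11 lowest, as for *Nr3c2*. The log2 fold change was 0.09 (SE 0.10, 95% interval -0.13 to 0.31, limma voom adjusted p = 0.926). It was 0.04 without MSUS mouse 26, 0.14 without MSUS mouse 11 and 0.16 with the elongated spermatid markers as a covariate.

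*Tsc22d3* encodes GILZ, a leucine zipper protein through which glucocorticoids dampen inflammatory transcription, and lies on chromosome X from 140539528 to 140600659 (minus strand). It had only 32 to 56 counts per library. Its level ran from 1.39 to 2.12 log2 CPM (median 1.76) in control and from 1.56 to 2.03 (median 1.77) in MSUS mice. The MSUS mice lay within the control range. The log2 fold change was -0.00024 (SE 0.19, 95% interval -0.40 to 0.40, limma voom adjusted p = 1.00), and because of the low counts the interval still admits folds from 0.756 to 1.32. Per kilobase *Sgk1* exceeded *Tsc22d3* by a factor of 7.05 ± 1.14 in control mice (16.9 ± 2.74 with the median transcript length).

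*Zbtb16* encodes PLZF, a repressor that is strongly induced by glucocorticoids in many tissues and marks undifferentiated spermatogonia in the testis. It lies on chromosome 9 from 48654297 to 48836222 on the minus strand. Control mice 9, 10, 12, 14, 22 and 24 had 5, 11, 4, 7, 3 and 6 counts. MSUS mice 1, 5, 6, 11, 13, 23 and 26 had 25, 9, 7, 7, 7, 6 and 6. MSUS mouse 1 thus held 25 of the 67 counts of its group. In CPM the mean was 0.502 ± 0.215 in control (n = 6) and 0.863 ± 0.582 in MSUS mice (n = 7), and the difference of 0.361 did not pass the permutation test over all splits (exact, two-sided p = 0.120). Leaving MSUS mouse 1 out gave 0.143 (exact permutation p = 0.169). In a fit of all genes with no count filter the log2 fold change was 0.70 (SE 0.42, limma voom adjusted p = 0.929). *Gfra1*, another marker of undifferentiated spermatogonia, had 2 counts in MSUS mouse 1 and between 2 and 11 in the other MSUS mice. The 5 spermatogonia markers together, mostly *Uchl1* and *Dmrt1*, summed to 383 CPM in MSUS mouse 1, the highest sum of the 13 mice. Their mean there was 3.00 log2 CPM, against group means of 2.92 in control and 2.93 in MSUS mice. The source of the *Zbtb16* counts in MSUS mouse 1 was not tested.

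The DNA ahead of these genes was read from the RefSeq promoter table of GRCm38.p6, which held 14 starts for 7 of the 10 genes. The 250 bases before each start were searched on both strands for the hexamers AGAACA and TGTTCT, which with 3 bases between them form the response element. Up to 2 mismatches in the 12 hexamer bases were allowed. Of all 32851 promoters, 511 (1.56%) held such an element and 3 (0.00913%) held one with no mismatch. Among the 14 promoters, 2 held an element, both at starts of *Sgk1*, and 1 of these had no mismatch. The following windows show the elements of *Sgk1*, the only hexamer of *Tsc22d3* and the element of *Fam107a*, another glucocorticoid target, with the matched bases in capitals and the strand of the gene from 5′ to 3′.
Sgk1, no mismatch, chr10:21993686-21993730, plus strand, intron of the annotated gene: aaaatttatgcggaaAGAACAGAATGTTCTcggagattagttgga
Sgk1, 2 mismatches, chr10:21985906-21985950, plus strand, intron: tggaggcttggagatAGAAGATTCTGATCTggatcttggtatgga
Tsc22d3, hexamer, chrX:140600687-140600722, minus strand, outside the gene: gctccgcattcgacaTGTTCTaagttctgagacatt
Fam107a, 2 mismatches, chr14:8309869-8309913, minus strand, intron: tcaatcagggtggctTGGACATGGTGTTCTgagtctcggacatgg

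The perfect element of *Sgk1* sits 189 to 175 bases before one of its internal starts. An exact hexamer, whether or not it was part of an element, was found in 16.1% of all promoters and in 4 of the 14. Neither an element nor a hexamer was found in these windows at the starts of *Per1*. A match in these letters is no evidence of binding, and receptor binding was not measured here.

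Whether mice with more of one target also had more of another was examined across the 13 mice with the group means removed, for 6 pairs of *Fkbp5*, *Tsc22d3*, *Sgk1* and *Zbtb16*. None of the pairs passed adjustment. *Fkbp5* and *Zbtb16* had the highest correlation (Pearson r = 0.60, permutation p = 0.0245, adjusted over 6 pairs 0.147, and Spearman rho = 0.53, permutation p = 0.0717, adjusted 0.430). Without the 2 mice farthest from the median of *Fkbp5*, control 22 and MSUS 11, r was 0.45. The other 5 pairs had r between -0.34 and 0.18 and rho between -0.29 and 0.15, with adjusted permutation p of 0.570 for r and 0.717 for rho in each. *Fkbp5* with *Tsc22d3* had r = -0.28 (permutation p = 0.436), which became 0.07 without the same 2 mice. It was also 0.07 without control mouse 22 alone but -0.30 without MSUS mouse 11 alone, so its sign rested on control mouse 22.

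The genes whose level followed a member most closely over the 13 mice, with group means removed, were other genes altogether. For *Nr3c1* they were *Mapk14* (r = 0.88), *Gpatch3* (0.87) and *Lmf1* (0.86). For *Fkbp5* they were *Rrs1* (r = 0.93), *Cfl1* (0.91) and *Prepl* (0.91), and for *Tsc22d3* *Ppp1r35* (0.88), *Smoc1* (0.86) and *Zfp948* (0.84). These are the highest of the 14421 genes once predicted genes were left out, picked by value. Predicted genes were those with names of Gm or LOC and digits, or ending in Rik. *Fkbp5* stood at r = -0.41 with *Nr3c1* and 0.28 with *Fkbp4*.

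Of 72 further genes of the pathway in 5 lists, 55 passed the count filter. With an unadjusted p under 0.05, 2 were higher and 1 was lower in MSUS mice (5.42% of all genes tested in either direction), and 0 passed adjustment. Their median log2 fold change was 0.01, against -0.0018 for all genes. The chaperones that fold and load the receptor were all tested, 15 of 15, and 0 had p under 0.05. Their median was -0.04, with 11 of 15 below 0 and 4 above it, where 49.5% of all genes tested stood above 0. *Hspa8*, the constitutive HSC70, had 11.04 ± 0.09 log2 CPM in control (n = 6) and 10.96 ± 0.05 in MSUS mice (n = 7), and *Hsp90ab1*, the main HSP90 of the complex, 11.02 ± 0.08 and 10.97 ± 0.09.

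Coregulators of the receptor had 12 of 15 tested genes above 0, where 49.5% of all genes stood, with a median log2 fold change of 0.09. *Ncoa2* had 9.996 ± 0.121 log2 CPM in control and 10.05 ± 0.18 in MSUS mice. *Hdac3*, a histone deacetylase, had 6.86 ± 0.08 and 6.70 ± 0.14, and was the 1 gene of the list with p under 0.05 (log2 fold change -0.15, SE 0.07, limma voom adjusted p = 0.878).

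Other known glucocorticoid targets had 20 of 25 genes tested, 2 with p under 0.05, both higher in MSUS mice, and a median log2 fold change of 0.02. *Glul*, glutamine synthetase, had 7.73 ± 0.13 log2 CPM in control and 7.74 ± 0.12 in MSUS mice, and *Nfkbia*, the inhibitor of NF-κB, 7.37 ± 0.17 and 7.35 ± 0.12. *Per1*, a clock gene with a glucocorticoid-responsive promoter, ran from 6.995 to 7.47 log2 CPM (median 7.23) in control and from 7.30 to 7.73 (median 7.48) in MSUS mice, with 7 of 7 MSUS mice above the control mean. Its log2 fold change was 0.29 (SE 0.09, 95% interval 0.11 to 0.48, limma voom adjusted p = 0.878). *Fam107a*, a stress-induced actin regulator, ran from 3.45 to 4.72 (median 4.21) and from 3.99 to 4.92 (median 4.51), with a log2 fold change of 0.39 (SE 0.18, limma voom adjusted p = 0.878).

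With each mouse left out in turn, *Per1* kept an unadjusted p under 0.05, and its log2 fold change ranged from 0.25 to 0.34. *Fam107a* lost it without control mouse 10, 12 or 14 or MSUS mouse 1, 5 or 6, with a range of 0.23 to 0.50. *Hdac3* lost it without control mouse 14, 22 or 24 or MSUS mouse 5, 6, 11 or 26, with a range of -0.18 to -0.12. The count of 3 pathway genes became 5 without control mouse 10, 6 without control mouse 22 or MSUS mouse 13, and 1 without control mouse 14 or MSUS mouse 5. Over all genes tested the count of 781 also moved. It was 1121 without control mouse 10, 804 without control mouse 22 and 1023 without MSUS mouse 13. Without control mouse 14 it was 683, and without MSUS mouse 5 it was 534.

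The mineralocorticoid list had 3 of 6 genes tested and 0 with p under 0.05. *Atp1b1*, the beta subunit of a sodium pump, had 8.67 ± 0.11 log2 CPM in control (n = 6) and 8.69 ± 0.10 in MSUS mice (n = 7). The genes of corticosteroid metabolism and transport were mostly too low, with 2 of 10 tested and 0 with p under 0.05, namely *H6pd* (log2 fold change 0.01, SE 0.10) and the 5α-reductase *Srd5a1* (-0.03, SE 0.24).

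**Figure D4:**
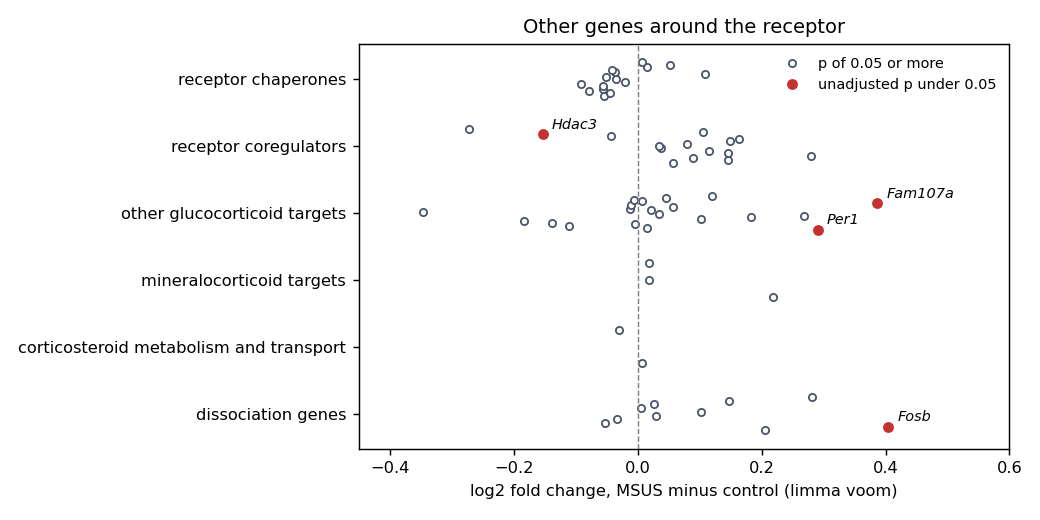
Log2 fold change of MSUS against control mice (x axis, limma voom) for each tested gene of the 5 pathway lists and of the dissociation genes, 1 point per gene. Filled points have an unadjusted p under 0.05 and are named, and 0 of the points pass adjustment.

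The *Per1* level moved with *Malat1*, an abundant RNA that stays in the nucleus, and *Malat1* itself had an unadjusted p under 0.05 (log2 fold change 0.70, SE 0.22, limma voom adjusted p = 0.878). With group means removed, r of *Per1* and *Malat1* over the 13 mice was 0.93, and of *Fosb* and *Malat1* 0.80. With the *Malat1* level as a covariate, the log2 fold change of *Per1* was 0.06 and its p was no longer under 0.05. In that fit 0 of the 55 pathway genes had p under 0.05, and over all 14421 genes the count fell from 781 to 401. *Malat1* was itself above the control mean in 7 of 7 MSUS mice, so this covariate takes up part of the group contrast. *Fam107a*, whose r with *Malat1* was 0.06, had nearly the same value with the covariate but a larger error (0.35, SE 0.22). Among 10 genes that tissue dissociation induces, 0 passed adjustment and 1 had an unadjusted p under 0.05, where 5.42% of all genes tested did. This was *Fosb*, with a log2 fold change of 0.40 (SE 0.17, limma voom adjusted p = 0.878; from 0.30 to 0.51 with each mouse left out, and not under 0.05 without control mouse 9, 22 or 24 or MSUS mouse 5 or 6), while *Jun* had -0.05 (SE 0.14) and *Egr1* 0.10 (SE 0.11). Among the 7 genes of the main set, r with *Malat1* ran from -0.68 for *Fkbp4* to 0.42 for *Nr3c2*. The fit with the covariate cannot separate *Malat1* from the group, and the part of *Malat1* in these values was not tested.

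**Figure D5:**
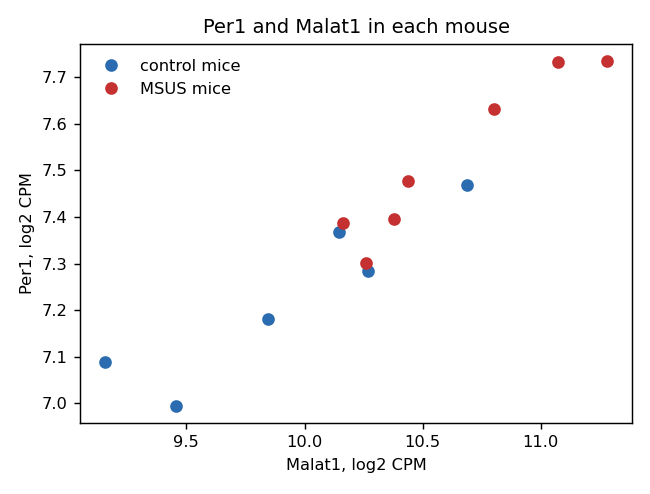
*Per1* (y axis) against *Malat1* (x axis), both in log2 CPM, with 1 point per control (blue, n = 6) or MSUS (red, n = 7) mouse. Points rise together in both groups, and the group-centred r is 0.93.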

How the data were processed

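RNA of sorted Sertoli cells of batch 1 was sequenced in 13 mice. The authors prepared stranded libraries over 12 cycles of PCR, trimmed single-end reads with Trim Galore 0.6.5, assigned them with Salmon 1.1.0 to transcripts of GENCODE vM23, and deposited estimated counts per gene, without normalization. How transcripts were summed to genes, and whether strand was used, is not given in the sources used here. Genes annotated on the opposite strand overlap *Nr3c2*, *Fkbp5*, *Hsd11b1* and *Ncoa1*.

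Estimated counts were rounded to whole numbers. Of the 54281 features, 27170 with no gene name (20.7% to 26.7% of the counts of a library) entered neither the library sizes nor the tests. Counts were scaled by TMM and tested with limma 3.58.1 voom (R 4.3.3, edgeR 4.0.16), two-sided, with Benjamini-Hochberg adjustment over the 14421 genes kept by filterByExpr. Levels are given as log2 CPM (prior count 2). For ratios and for genes outside the filter, every split of the 13 mice was enumerated in an exact permutation test (smallest possible p 0.000583), and correlations by permutation within groups. The fit and the permutation code were tested on simulated data. The study lists cage and litter for its mice and placed siblings in different cages, but litter was not used here, so p-values treat the 13 mice as independent. Lengths and coordinates were read from GENCODE vM21, which annotates the same build, GRCm38, and lengths were found for 92.8% of the genes tested.

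The members and lists were chosen with earlier results of these data known. Named genes were the 10 members, the 2 most abundant genes of each pathway list and each with p under 0.05, and the 3 genes most like *Nr3c1*, *Fkbp5* and *Tsc22d3*. Some genes that the rule names are not reported here. *Malat1*, *Gfra1*, *Uchl1*, *Dmrt1*, *Ncoa3*, *Ppargc1a* and, for its level, *H6pd* were named outside that rule or for a comparison of levels. Alternatives were edgeR's quasi-likelihood test, DESeq2 1.42.0, sample quality weights, other scalings and filters, 3 covariates, other prior counts and lengths, and leaving out each mouse. The permutation tests of genes outside the filter were added after the data were seen.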

Additional observations from a re-analysis of the deposited data

Results flagged for a closer look

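Among 32 groups of values, 2 held a mouse that stood apart from the others of its group by Dixon's criterion, and chance would give 1.6. *Zbtb16* in MSUS mouse 1 had 1.23 log2 CPM, while the 6 remaining MSUS mice lay between -0.56 and -0.01. *Hsd11b2* in MSUS mouse 6 was at -0.69 log2 CPM, against -2.52 to -1.94 in the others, a difference that rests on 5 counts.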

How the results depend on the processing

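The number of members with p under 0.05 stayed at 0 under each of the 12 other fits, and the number of genes with adjusted p under 0.05 was 0 in each of them and with each mouse left out. With 1 mouse left out, 0 to 1 members had p under 0.05, as described for *Ncoa1* and *Fkbp5*. The count over all genes with p under 0.05, 781 of 14421, became 1182 with no count filter, where 23680 genes were tested. As covariates, the elongated spermatid markers gave 1204, *Malat1* 401 and the dissociation genes 725. With 1 mouse left out it was 534 to 1121. For the pathway lists the 3 genes became 6 with no count filter, where the 17 genes outside it were tested too. They became 9 with the spermatid markers, 0 with *Malat1* and 5 with the dissociation genes as a covariate. With 1 mouse left out they were 1 to 6. Point estimates near 0 changed sign. With *Malat1* as a covariate the log2 fold changes were -0.080 for *Nr3c1*, 0.032 for *Fkbp5*, 0.061 for *Fkbp4* and 0.028 for *Tsc22d3*. That of *Fosb*, which was not near 0 in the main fit (0.40), was -0.015 with this covariate. With sample quality weights the log2 fold changes were -0.0018 for *Nr3c1* and 0.015 for *Tsc22d3*, and with the spermatid markers 0.037 for *Nr3c2* and 0.019 for *Tsc22d3*. *Tsc22d3* was also at 0.0053 with DESeq2 size factors and 0.0031 with genes required to reach 1 CPM in 6 or more mice. With 1 mouse left out, *Nr3c1* ranged from -0.040 to 0.073, *Nr3c2* from -0.089 to 0.018, *Tsc22d3* from -0.101 to 0.075, the *Fkbp5* to *Fkbp4* ratio from -0.101 to 0.021, and the correlation of *Fkbp5* with *Tsc22d3* from -0.535 to 0.074 and with *Sgk1* from -0.467 to 0.119. Of the 12 other fits, the unadjusted call of *Per1* was lost with the *Malat1* covariate only and those of 3 further genes in 2 each. *Fam107a* lost it with edgeR (0.35) and *Malat1* (0.35), *Hdac3* with the dissociation genes (-0.13) and *Malat1* (-0.06), and *Fosb* with DESeq2 (0.40) and *Malat1*. The cause was not tested. Counts per library were lowest for *Tsc22d3*, *Zbtb16* and the enzymes, and small differences in these were not detectable at this depth.

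No paired analysis was made. Each replicate number stands for a mouse that was either control or MSUS, so these numbers give no pairing, and litter was not used here.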

Other observations

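*Ppargc1a*, which encodes the coactivator PGC-1α known for driving mitochondrial gene expression, was the receptor coregulator that did not pass the count filter, and it was singled out after its values were seen. Control mice 9, 10, 12, 14, 22 and 24 had 6, 22, 7, 7, 16 and 8 counts. MSUS mice 1, 5, 6, 11, 13, 23 and 26 had 7, 7, 1, 7, 2, 1 and 1. In CPM the mean was 0.873 ± 0.387 in control (n = 6) and 0.336 ± 0.277 in MSUS mice (n = 7), and 7 of 7 MSUS mice lay below the control mean, although the groups overlapped. The exact permutation test on CPM gave p = 0.0169 (two-sided), with a range of 0.0114 to 0.0346 when each mouse was left out in turn. In the fit of all genes with no count filter the log2 fold change was -1.58 (SE 0.50, limma voom adjusted p = 0.929), so it did not pass adjustment. Of the 17 pathway genes outside the filter, 1 had an exact permutation p under 0.05, against 2.92% of the 9259 genes outside it.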
